A study of Homo sapiens with 15 samples.

Results

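The kinesin-6 family consists in human cells of KIF20A (also called MKLP2), KIF20B (also called MPP1) and KIF23 (also called MKLP1). These 3 genes were taken by their symbols from a table of 60651 genes and a table of 23792 genes, and each symbol had 1 row in both. The libraries were RNA sequencing libraries of MDA-MB231 by their labels, a breast cancer line of the triple-negative type, and formed 2 datasets. The depletion dataset held 3 libraries each of SG1 and SG3, both labelled as a KIF20A knockdown, and 3 of CTRL, labelled WT. The overexpression dataset held 3 libraries of KIF20A_OE, labelled as a KIF20A overexpression, and 3 of EV, labelled WT. The question was whether the other members follow or offset KIF20A when its level is changed. The labels do not say what SG1 and SG3 stand for, which vectors were used, or whether the libraries of a group are separate cultures. The spread behind each p-value may therefore be technical only.

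Kinesin-6 motors act late in mitosis, when the separated chromosomes are at the poles and the overlapping microtubules between them are bundled into the central spindle. KIF23 pairs with RACGAP1 in the centralspindlin complex, which bundles these microtubules and recruits ECT2, the exchange factor that activates RHOA for cleavage furrow ingression. KIF20A carries AURKB and its partners in the chromosomal passenger complex to the central spindle, and was first described as a partner of the Golgi GTPase RAB6A. KIF20B, the longest of the group, bundles microtubules and acts in late cytokinesis. Transcripts of such genes accumulate in G2 and mitosis through the DREAM and MYBL2-FOXM1 complexes, which bind promoters at the cell cycle homology region (TTTGAA or TTTAAA). Nearby CCAAT boxes are a further element of many such promoters.

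The count table lists KIF20A as ENSG00000112984.12, KIF20B as ENSG00000138182.15 and KIF23 as ENSG00000137807.16. Positions and lengths are from GENCODE 29 on GRCh38, which holds an earlier version of each (ENSG00000112984.11, ENSG00000138182.14 and ENSG00000137807.15), so they may differ from those behind the counts. There KIF20A occupied positions 138178719 to 138187715 on the plus strand of chromosome 5. KIF20B lay on chromosome 10 between 89701610 and 89774939, and KIF23 on chromosome 15 between 69414246 and 69448427, both on the plus strand. The longest identical run between transcripts of any pair of members was 13 to 15 bases, so a read of ordinary length could hardly match more than a single member. From gene start to gene end, KIF20A shared 268 bases with BRD8 and 68 with CDC23, both on the other strand. KIF23 shared 784 bases with the antisense gene AC027237.3. How many of these bases are exonic in both genes was not checked. Any reads from exons of both genes there cannot be told apart, because no source used here names the strand setting of the counting. BRD8 was at 90.2 to 116 CPM (counts per 1000000) and CDC23 at 70.2 to 93.0 CPM over the depletion libraries, and AC027237.3 at 1.01 to 2.51 CPM, far under KIF23.

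The RefSeq promoters are shown because the 3 genes are cell-cycle genes whose levels are compared below, and they show which elements the members share. Each window runs from 250 bases before to 50 bases after the RefSeq start, 5′ to 3′ on the plus strand of GRCh38.p14, at chr5:138178862-138179161 for KIF20A, chr10:89701340-89701639 for KIF20B and chr15:69414099-69414398 for KIF23. Capitals mark CCAAT (read here as ATTGG on the opposite strand), TTTGAA and TTTAAA, searched on both strands; no marked motifs overlap.
KIF20A: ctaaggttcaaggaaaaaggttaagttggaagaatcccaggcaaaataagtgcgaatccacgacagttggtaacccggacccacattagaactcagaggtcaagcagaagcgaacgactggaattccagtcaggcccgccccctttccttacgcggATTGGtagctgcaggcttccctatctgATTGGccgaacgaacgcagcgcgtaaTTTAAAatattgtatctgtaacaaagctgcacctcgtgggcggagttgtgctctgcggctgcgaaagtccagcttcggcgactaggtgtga
KIF20B: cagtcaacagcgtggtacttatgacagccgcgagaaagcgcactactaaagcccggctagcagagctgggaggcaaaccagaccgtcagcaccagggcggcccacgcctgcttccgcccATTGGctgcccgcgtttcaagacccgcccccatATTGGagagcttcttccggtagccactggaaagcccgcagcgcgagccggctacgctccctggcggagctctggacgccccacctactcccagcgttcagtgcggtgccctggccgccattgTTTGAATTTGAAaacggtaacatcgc
KIF23: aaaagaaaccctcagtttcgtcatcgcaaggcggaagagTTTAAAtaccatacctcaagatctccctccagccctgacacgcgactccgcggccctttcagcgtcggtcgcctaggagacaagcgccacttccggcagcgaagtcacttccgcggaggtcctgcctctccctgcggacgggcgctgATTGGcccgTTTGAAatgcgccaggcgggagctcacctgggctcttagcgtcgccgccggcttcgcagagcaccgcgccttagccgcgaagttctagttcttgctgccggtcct
KIF20A held ATTGG starting 94 and 67 bases before the start and TTTAAA 41 bases before it. KIF23 held ATTGG 64 bases and TTTGAA 55 bases before the start, with another TTTAAA 211 bases before it. KIF20B held ATTGG 131 and 98 bases before the start, and its TTTGAA copies began 25 and 31 bases after it. Among 35116 RefSeq promoter windows of the same length, 34.6% held CCAAT, 24.0% held TTTGAA or TTTAAA, and 9.27% held both kinds. All 3 members were among the last, with a GC content of 51.3% for KIF20A, 62.3% for KIF20B and 61.7% for KIF23. A match of letters is a description of the window and not evidence of binding.

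With M for 1000000, totals per library ran to between 40.9 and 51 M counts for depletion and between 16 and 22.2 M recovered fragments for overexpression. Every member had at least 1352 reads in each library, so the counting error of a single value was 0.681% to 2.72%, well under most spreads between replicates; it covers counting error only. Depletion levels are CPM with TMM-scaled library sizes, and overexpression levels are FPM (fragments per 1000000 fragments). Each dataset has its own scaling, so no test was made between them. All genes together gave no call at an adjusted p of 0.05 in the depletion comparisons with edgeR's quasi-likelihood test on 16786 genes, so the share called was 0.00% in each. An unadjusted p under 0.05 was found for 770 genes in SG1 against CTRL, 200 in SG3 against CTRL, 795 in SG1 against SG3 and 295 in the mean of SG1 and SG3. DESeq2 called 3, 4, 5 and 5 genes in these comparisons.

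The 3 libraries labelled KIF20A_OE went against their cell-line label, most of all in CD44 and AXL. CD44 averaged 0.557 ± 0.591 FPM in libraries labelled KIF20A_OE and 642 ± 135 FPM in EV (SD, n = 3 each), and AXL averaged 0.771 ± 0.0352 FPM in libraries labelled KIF20A_OE and 962 ± 148 FPM in EV. All 5 genes taken as high in MDA-MB231 (VIM, CD44, AXL, CAV1 and MSN) passed the limma test as lower in these libraries, with a median log2 fold change of -5.02. VIM and MSN still averaged 556 ± 214 and 291 ± 49.2 FPM there, against 2653 ± 117 and 2292 ± 693 FPM in EV. Of genes taken as low in MDA-MB231, ESR1 averaged 0.197 FPM and ERBB2 45.4 FPM in these libraries, against 0.0392 and 71.0 FPM in EV. PGR averaged 3.05 ± 5.06 FPM and CDH1 3.52 ± 1.32 FPM in these libraries, against 0 and 0.299 FPM in EV. In the depletion dataset the 5 genes taken as high were high in every group, with CD44 at 1405 CPM in SG1, 1327 CPM in SG3 and 1411 CPM in CTRL. A difference between the libraries labelled KIF20A_OE and EV therefore cannot be told apart from whatever else separates these libraries, and the overexpression results below are described with that limit.

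**Figure D1:**
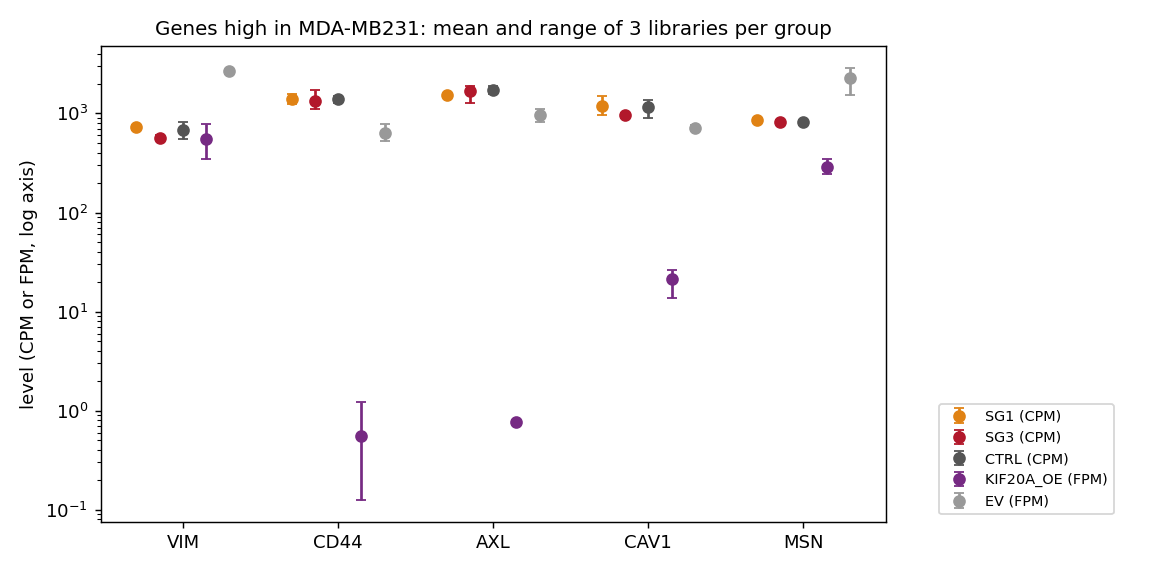
Mean level of genes high in MDA-MB231 in each group, with bars from the lowest to the highest of 3 libraries, in CPM for SG1, SG3 and CTRL and in FPM for KIF20A_OE and EV on a log axis. CD44 and AXL stand near 1 FPM in libraries labelled KIF20A_OE and at 523 or more in every library of the other groups.

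KIF20A, the targeted gene, had a lower level in both knockdown groups, and its largest gap was in SG3. It had 123, 147 and 91.5 CPM in SG1, 86.3, 60.8 and 79.1 CPM in SG3, and 154, 171 and 160 CPM in CTRL. All SG1 libraries lay below all CTRL libraries, and all SG3 libraries lay below all SG1 libraries. The mean was 121 ± 27.9 CPM in SG1, 75.4 ± 13.1 CPM in SG3 and 162 ± 8.75 CPM in CTRL (SD, n = 3 each), so that the ratio to the CTRL mean was 0.746 in SG1 and 0.466 in SG3. In bulk RNA, fewer cells with the transcript and less of it per cell cannot be told apart. The spread was widest in SG1, where the highest library had 1.61 times the level of the lowest, against 1.11 times in CTRL.

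For SG3 against CTRL, the log2 fold change of KIF20A was -1.10 ± 0.18 (SE), with an adjusted p of 0.33 in edgeR's quasi-likelihood test. It ranked first of 16786 genes by p without passing the adjustment. For SG1 against CTRL it was -0.42 ± 0.18, with an adjusted p of 0.913 in the same edgeR fit, and -0.26 without SG1 replicate 3. The share of all genes whose libraries did not overlap and were lower was 7.21% for SG1 against CTRL and 2.38% for SG3 against CTRL. All 6 knockdown libraries lay below all CTRL libraries, as did 0.441% of all genes. Over SG1 and SG3 together the log2 fold change was -0.76 ± 0.15, adjusted p 0.453 by edgeR, and DESeq2 called it with an adjusted p of 0.0222, as it called SG3 against CTRL with 0.000186. KIF20A was also called when the filter on low counts was dropped, in SG3 against CTRL with an adjusted p of 1.85e-07 and in the mean of both groups with 0.000114.

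KIF20B had its highest levels in SG1 and similar levels in SG3 and CTRL. It had 242, 273 and 228 CPM in SG1, 208, 145 and 164 CPM in SG3, and 155, 163 and 221 CPM in CTRL. The SG1 libraries lay above all CTRL libraries and above all SG3 libraries, while SG3 and CTRL overlapped. Means were 248 ± 23.0 CPM in SG1, 172 ± 32.6 CPM in SG3 and 180 ± 36.1 CPM in CTRL (SD, n = 3 each).

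The log2 fold change of KIF20B was 0.46 ± 0.17 (SE) for SG1 against CTRL, with an adjusted p of 0.913 by edgeR. It was -0.06 ± 0.17 for SG3 against CTRL, with an adjusted p of 1, and its sign turned in the edgeR fit when CTRL replicate 3 (0.10) or SG3 replicate 2 (0.05) was left out. Among all genes, 4.96% lay without overlap above CTRL in SG1.

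KIF23 showed the same order of groups as KIF20B. It had 275, 301 and 242 CPM in SG1, 186, 167 and 177 CPM in SG3, and 196, 184 and 254 CPM in CTRL. CTRL replicate 3 reached into the SG1 range, and SG3 replicate 1 lay above CTRL replicate 2, so neither knockdown group was separate from CTRL. Means were 273 ± 29.7 CPM in SG1, 177 ± 9.86 CPM in SG3 and 211 ± 37.4 CPM in CTRL (SD, n = 3 each). By edgeR KIF23 differed by 0.37 ± 0.15 (log2 fold change, SE) for SG1 against CTRL, with an adjusted p of 0.913, and -0.26 ± 0.15 for SG3 against CTRL, with an adjusted p of 1, which came to -0.11 without CTRL replicate 3. The comparisons of SG1 and SG3 share the CTRL libraries.

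**Figure D2:**
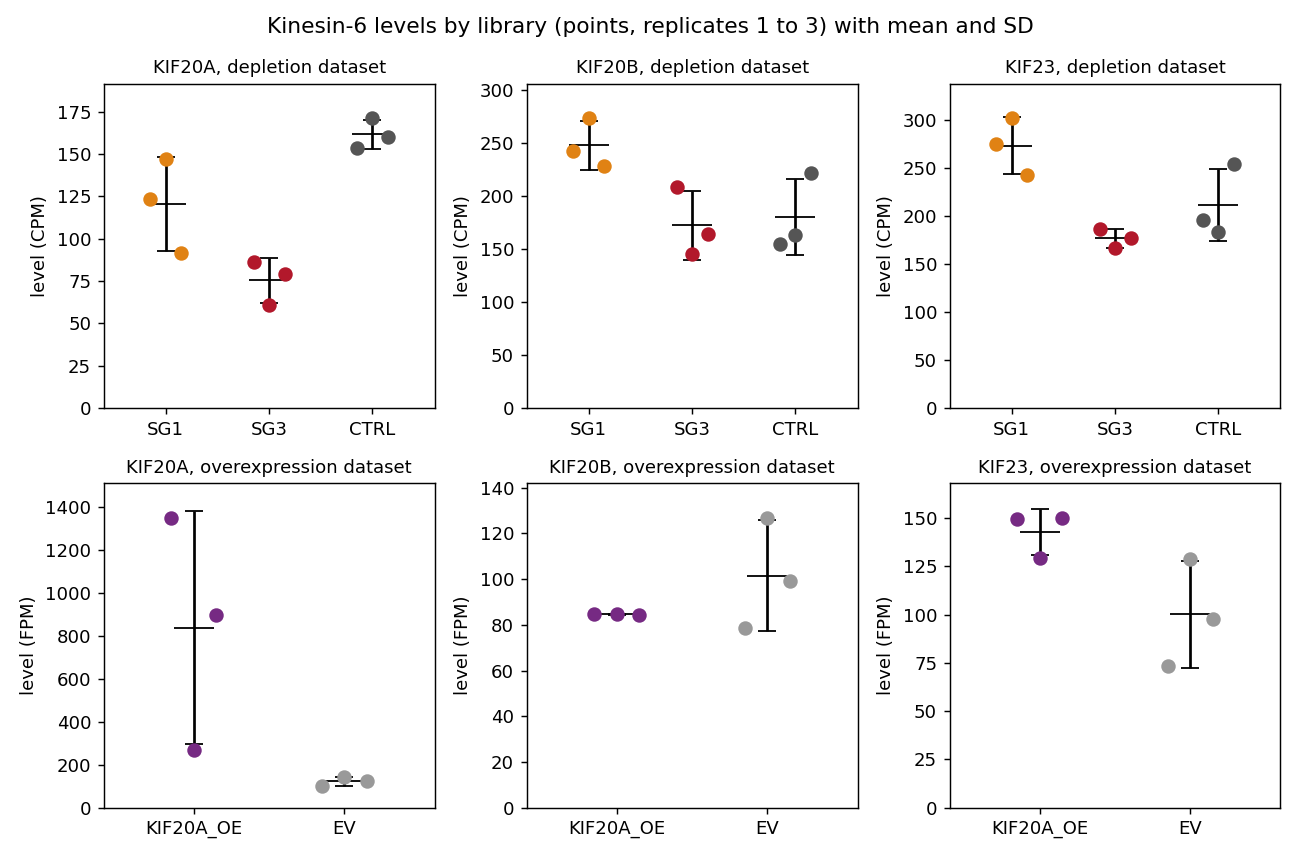
Level of each member in every library (points in replicate order 1 to 3) with the group mean and SD, in CPM for the depletion dataset (SG1, SG3, CTRL) and in FPM for the overexpression dataset (KIF20A_OE, EV). KIF20A is lowest in SG3, KIF20B and KIF23 are highest in SG1, and KIF20A spans 269 to 1348 FPM among libraries labelled KIF20A_OE.

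SG1 against SG3, the comparison without CTRL, placed all 3 members on the same side. The log2 fold change was 0.68 ± 0.18 (SE) for KIF20A, 0.52 ± 0.17 for KIF20B and 0.63 ± 0.15 for KIF23, and every SG1 library lay above every SG3 library for each of them. Among all genes, 6.26% were higher in SG1 without overlap. By unadjusted p, KIF23 ranked 7, KIF20A 12 and KIF20B 89 among 16786 genes in edgeR's test. All had an adjusted p of 0.861. Without the filter on low counts, KIF20A was called with an adjusted p of 0.0261.

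**Figure D3:**
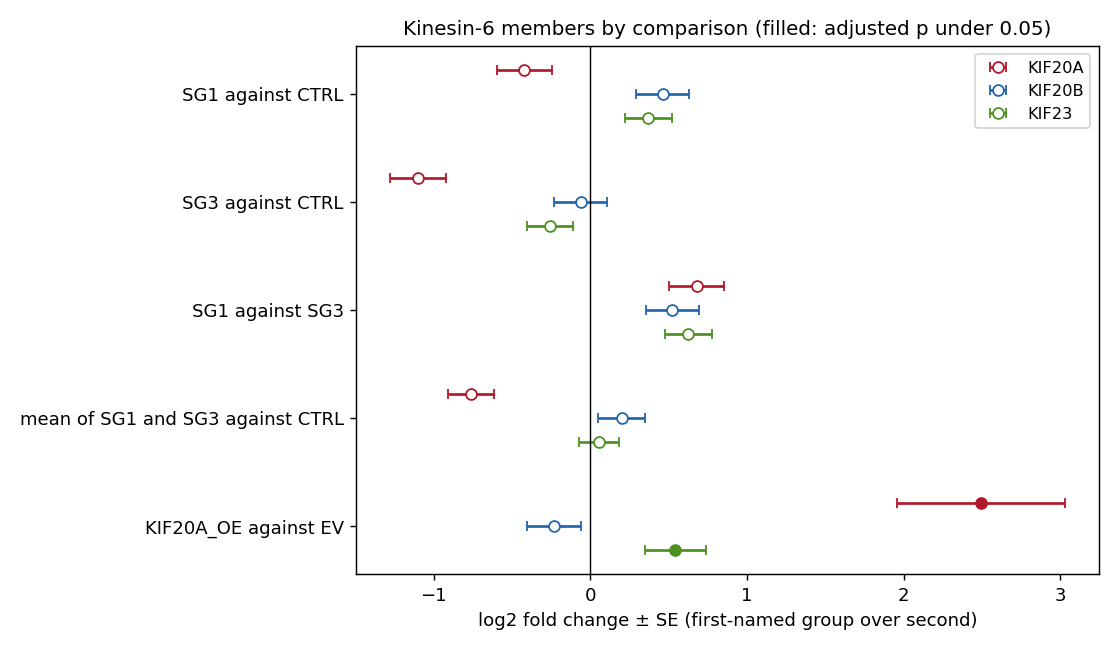
Log2 fold change with its SE for each member in 5 comparisons, the first-named group over the second, from edgeR (depletion) and limma on log2(FPM + 1) (overexpression); filled points have an adjusted p under 0.05. KIF20A is negative in each comparison of SG1 or SG3 with CTRL, and all members are positive in SG1 against SG3.

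KIF20A took a smaller share of the family in both knockdown groups. KIF20A made up 28.8%, 30.3% and 24.8% of the summed kinesin-6 level per kb of exonic length in SG1, 27.1%, 24.8% and 28.3% in SG3, and 42.6%, 45.5% and 36.4% in CTRL. No SG1 or SG3 library reached the lowest CTRL library, whereas SG1 and SG3 overlapped. The means were 28.0% ± 2.82 in SG1, 26.7% ± 1.74 in SG3 and 41.5% ± 4.68 in CTRL (SD, n = 3 each). A two-sided exact permutation test gave p = 0.1 for either group against CTRL, the smallest that 3 against 3 libraries can give, and p = 0.6 for SG1 against SG3. For all 6 knockdown libraries against CTRL the exact p was 0.0238, again the smallest possible. This test, like those of 6 libraries against 3 below, pools SG1 and SG3 as 1 condition. The level of each member nevertheless differed between SG1 and SG3 without overlap. With the longest coding transcript of each gene as length in place of all exonic bases, the shares were 25% in SG1, 24.0% in SG3 and 37.7% in CTRL.

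The ratios to KIF20A come from the same 3 levels per library as its share, so they are no separate result. The log2 ratio of KIF20B to KIF20A averaged 1.06 in SG1, 1.19 in SG3 and 0.14 in CTRL, and that of KIF23 to KIF20A averaged 1.20 in SG1, 1.24 in SG3 and 0.37 in CTRL. Both ratios were higher than in CTRL in each of the 6 knockdown libraries, with an exact two-sided p of 0.0238 each. The log2 ratio of KIF23 to KIF20B was 0.14 in SG1, 0.05 in SG3 and 0.24 in CTRL, and its groups overlapped. SG1 and SG3 overlapped in each of the 3 ratios.

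The summed level of the family differed between the knockdown groups. It was 108 ± 14.8 CPM per kb in SG1, 71.1 ± 9.35 CPM per kb in SG3 and 99.2 ± 10.7 CPM per kb in CTRL (SD, n = 3 each). The log2 difference was 0.12 for SG1 against CTRL, with overlapping libraries and an exact p of 0.6 (0.02 and 0.06 without SG1 replicate 2 or CTRL replicate 1, and 0.22 and 0.21 without SG1 replicate 3 or CTRL replicate 3), and -0.48 for SG3 against CTRL, without overlap and with an exact p of 0.1. SG1 was above SG3 by 0.60 on the log2 scale, without overlap and with an exact p of 0.1.

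**Figure D4:**
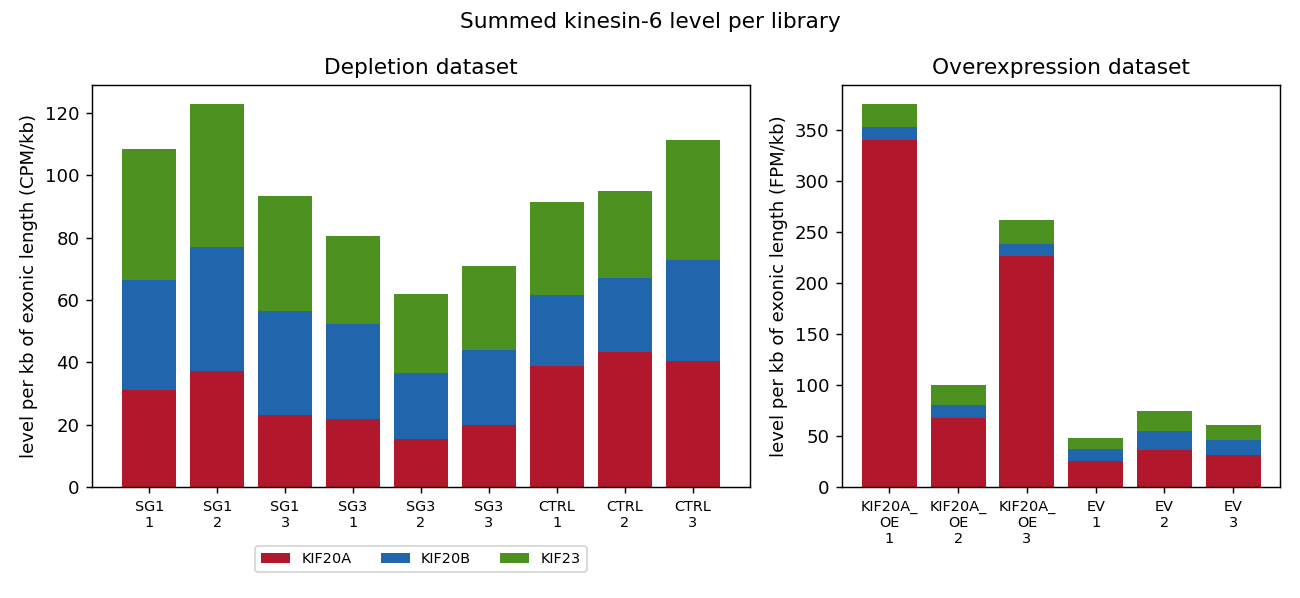
Stacked level of KIF20A, KIF20B and KIF23 per kb of exonic length in each library, in CPM per kb for SG1, SG3 and CTRL and in FPM per kb for KIF20A_OE and EV. The KIF20A segment is shorter in SG1 and SG3 than in CTRL, while the stacks of SG1 reach 93.2 to 123 CPM per kb, against 91.3 to 111 in CTRL.

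The order of the members per kb depended on the length used. With all exonic bases (3958 for KIF20A, 6851 for KIF20B and 6576 for KIF23), KIF20A had 23.1 to 37.2 CPM per kb in SG1, 15.4 to 21.8 in SG3 and 38.9 to 43.2 in CTRL. KIF23 had 36.8 to 45.8 CPM per kb in SG1, 25.3 to 28.3 in SG3 and 27.9 to 38.6 in CTRL, and KIF20B had 33.3 to 39.8 in SG1, 21.2 to 30.4 in SG3 and 22.6 to 32.3 in CTRL. KIF20A was thus the highest member in all CTRL libraries and the lowest in every SG1 and SG3 library. The ranges of KIF23 and KIF20B overlapped in each group. Within a library KIF23 was above KIF20B in every case but SG3 replicate 1. With the longest coding transcripts (3201, 6419 and 3723 bases), KIF23 was highest in every SG1 and SG3 library and in CTRL replicates 1 and 3, and KIF20A was lowest in all SG3 libraries and in SG1 replicate 3.

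Most other transcripts of G2 and mitosis also had higher mean values in SG1, beside KIF20B and KIF23, though few were separate from CTRL. Of 26 G2/M genes, 24 had a positive log2 fold change in SG1 against CTRL, with a median of 0.24, beside a median of -0.002 over all genes, and none was called; without CTRL replicate 1 the median was 0.11 and without SG1 replicate 2 it was 0.15. Only 2 of the 26 lay above CTRL without overlap in SG1, beside 4.96% of all genes. The mean log2 CPM of the 26 genes was 7.38 in SG1 replicate 3, below 7.57 in CTRL replicate 3. In SG3 against CTRL 25 of 26 were negative, with a median of -0.12 beside -0.01 over all genes. That median came to -0.02 without CTRL replicate 3. In SG1 against SG3 the median was 0.37, and 12 of 26 were higher in SG1 without overlap, beside 6.26% of all genes. ASPM, a spindle pole protein, had 329 ± 58.0 CPM in SG1, 226 ± 18.6 CPM in SG3 and 235 ± 10.2 CPM in CTRL, and NUF2, a subunit of the kinetochore NDC80 complex, had 104 ± 11.1 CPM in SG1 and 69.5 ± 3.20 CPM in SG3 (SD, n = 3 each).

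Set against the mean of these 26 genes in the same library, KIF20A was still lower in the knockdown libraries. This measure was chosen after seeing the data. On the log2 scale KIF20A was at -0.72 ± 0.14 in SG1, -1.04 ± 0.25 in SG3 and -0.04 ± 0.18 in CTRL (SD, n = 3 each), and every knockdown library lay below every CTRL library, with an exact p of 0.0238 for the 6 libraries against 3. KIF20B was at 0.34 ± 0.11 in SG1, 0.15 ± 0.28 in SG3 and 0.09 ± 0.11 in CTRL. KIF23 was at 0.48 ± 0.06 in SG1, 0.20 ± 0.09 in SG3 and 0.33 ± 0.12 in CTRL. For both of these, SG1 lay above CTRL without overlap (differences of 0.25 and 0.15 and an exact p of 0.1 each, the smallest possible), and SG3 overlapped CTRL. For KIF23 the margin was narrow, with the lowest SG1 library at 0.43 and the highest CTRL library at 0.42, and the difference was 0.08 without CTRL replicate 2.

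Across the 9 depletion libraries KIF20B and KIF23 varied together, while no relation with KIF20A passed the exact test. For log2 CPM of KIF20B and KIF23, Pearson's r was 0.91 (exact permutation p = 0.00215, adjusted over the 3 pairs 0.00646) and Spearman's rho 0.87 (p = 0.00451, adjusted 0.0135). Without the 2 libraries farthest from the median of KIF20B r was 0.92, and for deviations from the group means it was 0.86. KIF20A and KIF20B had r = 0.30 (exact p = 0.415, adjusted 0.415) and rho = 0.17 (p = 0.678, adjusted 0.678), and r was -0.32 without the 2 libraries farthest from the median of KIF20A. KIF20A and KIF23 had r = 0.49 (exact p = 0.172, adjusted 0.258) and rho = 0.47 (p = 0.213, adjusted 0.319), and r was 0.07 without the same libraries. Those were SG3 replicates 2 and 3, so the positive values rest on them. Within groups, the deviations of KIF20A had r = 0.59 with KIF20B and 0.51 with KIF23, above the values of 0.30 and 0.49 across groups. The exact p here and with the G2/M mean below treats the 9 libraries as exchangeable. They come from 3 groups, and KIF20A was targeted in SG1 and SG3, so a lack of relation within groups is not shown.

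With the mean of the 26 G2/M genes, also chosen after seeing the data, KIF23 had r = 0.92 (exact permutation p = 0.000306, adjusted over the 3 members 0.000918) and rho = 0.87 (adjusted p = 0.00676). KIF20B had r = 0.83 (exact p = 0.00514, adjusted 0.00771) and rho = 0.87 (adjusted p = 0.00676), and KIF20A had r = 0.47 (exact p = 0.198, adjusted 0.198) and rho = 0.50 (adjusted p = 0.178). Without SG1 replicates 1 and 2, the libraries farthest from the median, r was 0.81 for KIF23, 0.61 for KIF20B (exact p = 0.119) and 0.46 for KIF20A. The relation of KIF20B with the G2/M mean thus rests in part on these SG1 libraries. Deviations from group means gave r = 0.84 for KIF23, 0.62 for KIF20B and 0.64 for KIF20A.

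**Figure D5:**
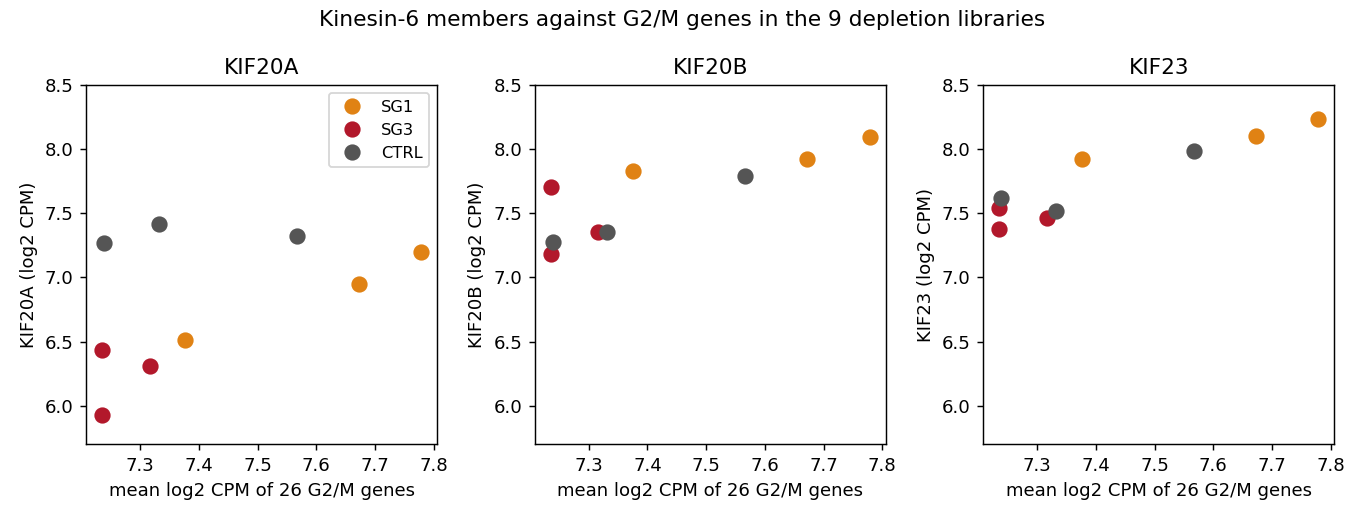
Log2 CPM of each member against the mean log2 CPM of 26 G2/M genes in the 9 depletion libraries, coloured by group (SG1, SG3, CTRL). KIF23 and KIF20B are higher where the G2/M mean is higher (r of 0.92 and 0.83). For KIF20A every SG1 and SG3 point lies below every CTRL point. SG1 replicates 1 and 2 have G2/M means of 7.67 and 7.78, above the highest CTRL library at 7.57.

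Among 9325 genes with a mean of at least 10 CPM, those most like each member by Pearson's r over the 9 libraries differed between the members. The closest to KIF20A were DPM1 (0.90), MORF4L1P1 (0.81), ANKRD28 (0.80), SMDT1 (0.80) and MED7 (0.79), while KIF23 ranked 436 and KIF20B 1883. Among the closest to KIF20B were MBNL1, an RNA-binding protein (0.99), and ATP2C1, RFX7 and DZIP3 (0.98 each), while KIF23 ranked 202 and KIF20A 4261. The closest to KIF23 were PHKB and NUF2 (0.97 each), TOP2A and ECT2 (0.96 each) and CEP41 (0.95), while KIF20B ranked 38 and KIF20A 2885. These libraries share groups and depth, so the values are a description.

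Partners of the family at the central spindle and midbody showed no called change in the depletion comparisons. Of 17 partners, 14 had a positive log2 fold change in SG1 against CTRL (median 0.22), 3 in SG3 against CTRL (median -0.06, with 10 positive and a median of 0.002 without SG3 replicate 1) and all 17 in SG1 against SG3 (median 0.24). Without SG1 replicate 2 the medians were 0.13 in SG1 against CTRL and 0.16 in SG1 against SG3, and without SG3 replicate 1 that of SG1 against SG3 was 0.15. ECT2 had 347 ± 47.4 CPM in SG1, 246 ± 30.6 CPM in SG3 and 271 ± 46.4 CPM in CTRL, and ANLN, the scaffold of the contractile ring, had 992 ± 184 CPM in SG1, 698 ± 31.2 CPM in SG3 and 758 ± 157 CPM in CTRL (SD, n = 3 each). The partners with the smallest p in SG3 against CTRL were RHOA and AURKB. RHOA had 721 ± 48.0 CPM in SG3 and 808 ± 159 CPM in CTRL. AURKB had 80.1 ± 19.4 CPM in SG3 and 92.0 ± 11.7 CPM in CTRL. Each differed by less than the larger SD of its groups, though by more than the smaller.

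Other cell-cycle lists were not called in these comparisons either. Of 19 G1/S genes, 17 were negative in SG1 against CTRL (median -0.17), and 7 lay below CTRL without overlap, beside 7.21% of all genes. UNG, a DNA repair glycosylase, had 85.8 ± 2.76 CPM in SG1 and 117 ± 9.20 CPM in CTRL (SD, n = 3 each). In SG3 against CTRL 16 of the 19 were negative, with a median of -0.05, and its sign turned without SG3 replicate 1 (0.04) or CTRL replicate 3 (0.006). The 16 regulators of G2/M genes had medians of 0.08 in SG1 and -0.03 in SG3 against CTRL, and the 12 genes of the ESCRT abscission machinery had medians of 0.01 in SG1 and -0.09 in SG3, all within 0.1 of the median of all genes. Mitochondrially encoded mRNAs were 1.47% to 3.41% of counts in SG1, 0.975% to 2.03% in SG3 and 0.962% to 2.55% in CTRL. Of these 13 mRNAs, 12 were positive in SG1 against CTRL, with a median of 0.61 (0.36 without CTRL replicate 3 and 0.29 without SG1 replicate 3), and their part in the results was not tested.

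In the overexpression dataset, KIF20A was higher in every library labelled KIF20A_OE, with levels that differed widely among them. It had 1348, 269 and 896 FPM in the libraries labelled KIF20A_OE, against 101, 143 and 124 FPM in EV. The lowest of the 3, replicate 2, was still above all EV libraries. Means were 838 ± 542 FPM in libraries labelled KIF20A_OE and 123 ± 20.9 FPM in EV (SD, n = 3 each), and the highest library labelled KIF20A_OE had 5.01 times the level of the lowest. On log2(FPM + 1), a scale that barely affects genes of this level, the fold change was 2.49 ± 0.53 (SE), with an adjusted p of 0.00415 by limma, and 3.17 without replicate 2 of KIF20A_OE. KIF20A ranked 7677 of 15265 genes by p, and 46.2% of all genes were called higher and 23.4% lower in this comparison.

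For the other members the difference was smaller than for KIF20A. KIF20B had 84.7, 84.9 and 84.5 FPM in libraries labelled KIF20A_OE, against 78.6, 127 and 99.4 FPM in EV. The KIF20A_OE values lay within the EV range, and their SD of 0.205 FPM was smaller than the counting error of a single library. The log2 fold change was -0.23 ± 0.17 (SE), with an adjusted p of 0.251 by limma, and -0.06 without EV replicate 2. KIF23 had 150, 129 and 150 FPM in libraries labelled KIF20A_OE, against 73.6, 129 and 98.0 FPM in EV. As for 48.9% of all genes, every library labelled KIF20A_OE lay above every EV library, but by a narrow margin, at 129.2 FPM in KIF20A_OE replicate 2 and 128.7 FPM in EV replicate 2. The log2 fold change of KIF23 was 0.54 ± 0.20, with an adjusted p of 0.0347 by limma, and 0.34 without EV replicate 1.

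Calls on KIF20B and KIF23 in this dataset depended on the scaling. The median log2 fold change of all genes was 0.37 on FPM as deposited and 0.04 with TMM factors, and the calls numbered 7048 higher and 3573 lower on the first scale and 5212 higher and 4944 lower on the second. Relative to the median of all genes, the log2 fold changes were 2.12 for KIF20A, -0.61 for KIF20B and 0.17 for KIF23. With TMM scaling KIF20B was called lower (-0.58, limma adjusted p 0.0134) and KIF23 was not called (0.19, adjusted p 0.395). With edgeR on the recovered fragments, KIF20B was called lower (-0.63, adjusted p 0.0107) and KIF23 was not called (0.15, adjusted p 0.524). The call on KIF23 was also lost without EV replicate 1 or 3 and without any one KIF20A_OE library, with adjusted p-values of 0.0515 to 0.103 by limma, and KIF20B was called lower without EV replicate 1 (-0.40, adjusted p 0.0404).

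Against the 26 G2/M genes of the same library, KIF20A was at 2.36 ± 1.24 log2 units in libraries labelled KIF20A_OE and 0.23 ± 0.12 in EV (SD, n = 3 each). KIF20B was at -0.65 ± 0.03 in libraries labelled KIF20A_OE and -0.05 ± 0.03 in EV. KIF23 was at 0.10 ± 0.16 in libraries labelled KIF20A_OE and -0.08 ± 0.03 in EV. KIF20A and KIF20B did not overlap between groups on this scale (exact p = 0.1 each, the smallest possible), and KIF23 did (exact p = 0.2). Within EV, replicate 2 was highest and replicate 1 lowest for KIF20A, KIF20B, KIF23 and the G2/M mean. The means of the G1/S genes and of the central spindle partners had the same order, so it is not particular to the members. The log2 ratio of KIF23 to KIF20B was 0.75 ± 0.13 in libraries labelled KIF20A_OE and -0.03 ± 0.06 in EV, without overlap and with an exact p of 0.1.

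KIF20A made up 90.7%, 68.0% and 86.6% of the kinesin-6 level per kb in libraries labelled KIF20A_OE, against 53.0%, 48.7% and 51.5% in EV. It was the highest member in all 6 libraries with either length. The summed level was 246 ± 139 FPM per kb in libraries labelled KIF20A_OE and 61.0 ± 13 FPM per kb in EV (SD, n = 3 each). Over the 3 libraries labelled KIF20A_OE, whose KIF20A levels spanned 5.01-fold, KIF20B spanned 1.00-fold and KIF23 1.16-fold. KIF23 was lowest in replicate 2, as was KIF20A, and KIF20B was the same within counting error.

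Over the 6 overexpression libraries and 10568 genes averaging 10 FPM or more, the genes most like KIF20A by Pearson's r of log2(FPM + 1) included ALDH9A1, LRBA, SHTN1 and GABRQ (0.99 or more each). KIF23 ranked 3036 (r = 0.80) and KIF20B 7037 (r = -0.36). The closest to KIF20B were TOP2A (0.99), CDC27, BCL2, DLGAP5 and TMEM39B, and the closest to KIF23 were DUT (0.99), BICC1, SKA1, NAPA and GON7. The 6 libraries form 2 groups that differ in most genes, so these values are a description.

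Partners of the family were called in both directions in the libraries labelled KIF20A_OE. Of 17 partners, 5 were called higher and 5 lower against EV by limma, beside 46.2% of all genes called higher and 23.4% called lower. With TMM scaling 4 were called higher and 6 lower, beside 5212 higher and 4944 lower of all 15206 genes. These counts are a description and no result about the partners as a list. BIRC5, a subunit of the chromosomal passenger complex, had 318 ± 40.4 FPM in libraries labelled KIF20A_OE, against 130 ± 38.0 FPM in EV. Its partner INCENP had 171 ± 9.08 FPM, against 94.6 ± 26.1 FPM in EV. PLK1, a kinase that binds KIF20A, had 208 ± 20.2 FPM, against 96.5 ± 26.6 FPM in EV. ANLN had 156 ± 21.5 FPM, against 464 ± 85.5 FPM in EV, and ECT2 had 149 ± 13.4 FPM, against 215 ± 31.2 FPM in EV (SD, n = 3 each). RAB6A, the Golgi partner of KIF20A, had 119 ± 17.4 FPM, against 205 ± 21.0 FPM in EV. AURKB was called higher (log2 fold change 0.65) and lost the call with TMM scaling (0.30, adjusted p 0.2 by limma).

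Of 19 G1/S genes, 17 were called higher in libraries labelled KIF20A_OE and none lower. Over all genes 46.2% were called higher and 23.4% lower. The median log2 fold change of the G1/S genes was 1.20, beside 0.37 over all genes. With TMM scaling 13 of them were called higher, beside 5212 higher and 4944 lower of all 15206 genes. Those counts over all genes also stand beside the TMM counts of the lists below. GINS2 of the replicative helicase had 101 ± 18.4 FPM in these libraries and 18.2 ± 3.42 FPM in EV (SD, n = 3 each). Of 26 G2/M genes, 8 were called higher and 1 lower, a smaller part in either direction than over all genes, with a median of 0.35, near that of all genes; with TMM scaling 4 were called higher and 5 lower. HMMR, a microtubule-binding protein, had 87.2 ± 8.91 FPM in libraries labelled KIF20A_OE and 10.2 ± 5.05 FPM in EV. Of 16 regulators, 9 were called higher (5 higher and 3 lower with TMM scaling), among them MYBL2 with 554 ± 48.2 FPM against 86.5 ± 19.8 FPM in EV, and LIN9, a subunit of the MuvB core, with 68.2 ± 10.3 FPM against 14.4 ± 3.14 FPM in EV. Of 12 ESCRT genes, 4 were called higher and 7 lower (2 and 7 with TMM scaling). CHMP3 had 49.8 ± 5.41 FPM in libraries labelled KIF20A_OE, against 140 ± 12.2 FPM in EV.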

How the data were processed

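RNA sequencing was measured in 15 libraries, grouped by the replicate-numbered sample titles. The members, gene lists and tests were chosen with earlier results of these data known. For depletion the authors deposited a table of raw counts. For overexpression the labels name FPKM, yet each column the authors deposited sums to 1000000 and its values are whole fragments times a constant (100% of values, tolerance 0.001 fragments), so the unit is CPM counted in fragments (FPM). The design had assumed FPKM; its log2 test was kept. The submitters' processing notes list hg38, limma 3.50.3, Subread 1.6.3 with featureCounts, STAR 2.7.3a and Trim Galore 0.6.4, without roles; no source used here names the annotation release or strand setting.

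The 9 depletion libraries were fitted together in edgeR 4.0.16 (R 4.3.3; quasi-likelihood, TMM, default filter). Overexpression values were tested with limma 3.58.1 (trend, robust) on log2(FPM + 1) for 15265 genes averaging 1 FPM or more. Adjusted p-values are Benjamini-Hochberg over all genes of a comparison, threshold 0.05. Ratios and shares were tested by two-sided exact permutation in scipy 1.17.1. Exonic lengths came from GENCODE 29, which held 96.3% of the identifiers of the count table and 97.3% of those of the FPM table, and promoters from RefSeq. Named genes were the members, the 5 genes most like each, and for each list the 2 members with the smallest p or those called; in the overexpression comparison only some of the called genes are named. A count of 0 allows up to 3 counts, 0.0588 to 0.0734 CPM or 0.135 to 0.188 FPM per library. Among counts of 10 to 50, 62.9% to 68.0% were even per library, so halved counts were an alternative. Replicates differed beyond sampling noise, with a chi-square per degree of freedom of at least 11.65. Alternatives were RLE size factors, DESeq2 1.42.0, limma-voom, no filter, another pseudocount, edgeR on recovered fragments, TMM scaling of FPM, a replicate block, only the libraries compared, and leaving out each library. The fits were tested on simulated data. Some genes that the rule on likeness names are not reported here.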

Additional observations from a re-analysis of the deposited data

How the results depend on the processing

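Of 514 values under an alternative, 473 kept their direction and side of the threshold, 20 no longer passed 0.05 (12 of them exact tests with a CTRL library left out), 8 gained a call and 13 changed sign. KIF20A in SG3 against CTRL stayed between -1.18 and -0.97 and was called without the low-count filter (-1.07) and by DESeq2 (-1.09). In both knockdown groups against CTRL, KIF20A was called by the same settings (-0.75 and -0.76), and SG1 against SG3 without the filter (0.64). In KIF20A_OE against EV, KIF20A kept its call throughout (2.01 to 3.17), KIF20B gained one with edgeR on fragments (-0.63) and with TMM scaling (-0.58), and KIF23 lost its call with both (0.15 and 0.19). The correlation of KIF20B with KIF20A became -0.32 without the 2 farthest libraries, and that of KIF20B with the G2/M mean 0.61. Without 1 library at a time, KIF23 was -0.013 to 0.20 in the mean against CTRL, KIF20B was -0.19 to 0.10 in SG3 against CTRL and -0.40 to -0.061 in KIF20A_OE against EV, and KIF23 was 0.34 to 0.74 in KIF20A_OE against EV. For SG1 and SG3 together against CTRL, the difference in the KIF20A share was -16.7 to -12.1 percentage points, that in the log2 ratio of KIF20B to KIF20A 0.89 to 1.15, of KIF23 to KIF20A 0.71 to 0.99, in KIF20A relative to the G2/M mean -0.94 to -0.75, and in KIF23 relative to it -0.060 to 0.056. With 2 CTRL libraries left, the exact p was 0.0714, the smallest possible by construction. For SG1 against SG3 the log2 ratio of KIF23 to KIF20A was -0.15 to 0.061 and of KIF23 to KIF20B -0.020 to 0.16, and KIF20B relative to the G2/M mean was -0.10 to 0.16 in SG3 against CTRL. The cause of the other changes was not tested. The labels do not say whether same-numbered libraries belong together. Their deviations from group means correlated at -0.36 to 0.61 in the depletion dataset and at most 0.08 in the other. The highest value was that of CTRL replicate 2 with SG3 replicate 2. With a replicate block KIF20A in SG3 against CTRL was -1.10, with an edgeR adjusted p of 0.9998. KIF23 in KIF20A_OE against EV kept its call with the block (limma adjusted p 0.0454), and no member's call changed. Division by protein length was planned and not run. Over all genes, calls without the filter were 26 higher and 65 lower for SG1 against CTRL, 5 and 3 for SG3 against CTRL, 23 and 54 for SG1 against SG3, and 11 and 9 for the mean, against 0 with it; leaving out a library gave at most 5.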
